A study of Equus caballus with 19 samples.

Results

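Matrix metalloproteinases (MMPs) are zinc-dependent enzymes that cut the proteins of the extracellular matrix. The 10 genes described here were taken by name from both count tables of equine tenocytes: the collagenases MMP1, MMP8 and MMP13, the stromelysin MMP3, the gelatinases MMP2 and MMP9, the membrane types MMP14, MMP15 and MMP16, and MMP19, which stands outside these subgroups. They are 10 of the 29196 gene names in each table, and all 10 were found in both.

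The cells were adult tenocytes, the fibroblast-like cells of tendon, from the superficial digital flexor tendon of wild-type Thoroughbred horses sampled after death. They had been expanded to passages 3 to 7 and were grown for 14 days in 3D gels of bovine type I collagen, a reconstituted matrix that lacks the architecture of tendon. In the first batch, lines 1 to 5 were cultured in medium alone (control) or with 1 nM IL-1β, a proinflammatory cytokine, which gave 10 libraries. In the second batch, lines 6 to 8 were cultured as control, with 1 nM IL-1β, or with 1 nM IL-1β and 100 ng/ml IL1Ra, the natural antagonist that occupies the IL-1 receptor without signalling, which gave 9 libraries. Each of the 8 lines contributed 1 library to every condition of its batch, no vehicle was added to the controls, and IL1Ra without IL-1β was not among the libraries.

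Collagenases can cut the intact triple helix of fibrillar collagen, and gelatinases digest the denatured strands that remain. Stromelysin cuts proteoglycans and fibronectin and can activate other pro-MMPs, while the membrane types act at the cell surface, where MMP14 activates pro-MMP2. MMPs are made as inactive precursors and are held in check by tissue inhibitors (TIMPs), so the mRNA levels given here are not enzyme activities. In tendon these enzymes take part in matrix turnover and repair, and collagenase and stromelysin genes are well-known targets of IL-1 in connective tissue cells.

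Values are DESeq2-normalised counts, which sum to between 43393903 and 49197980 in the first-batch libraries and between 24964149 and 34602014 in those of the second batch. The batches were normalised separately, so all comparisons were made within a batch. The counts are not scaled for transcript length, so levels were compared between conditions and lines, and between genes only as within-library ratios that were then compared across conditions. Of 8 tenocyte markers, TNMD never exceeded 3 normalised counts. Of the 7 that were tested, 6 fell with IL-1β in the first batch by the rule given below, COL1A1 and COL1A2 among them. DCN, the other marker tested, was higher in 5 of 5 lines at a log2-fold change of 0.73 and did not pass. By that rule 12.8% of all genes tested changed in either direction. In the second batch 0 of the 7 passed it for IL-1β against control, where 0.341% of all genes tested did. When each line was compared with itself, 1 (SCX, a fall) passed, where 5.18% of all genes tested did. DCN was higher there in 3 of 3 lines at a log2-fold change of 1.61 and passed in neither case. The part of these markers in the MMP results was not tested. The tendon transcription factors SCX and MKX had a median of 1516 and 1702 in the first-batch controls and of 82.9 and 164 with IL-1β. PTPRC, the pan-leukocyte marker, was at 0 in the first-batch controls and at most 3.64 with IL-1β. In the second batch PTPRC was at most 6.46, and the 3 endothelial markers summed to 8.65 to 81.6 over all libraries. In bulk libraries, fewer cells expressing a gene and less RNA per cell cannot be told apart.

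All 3 collagenases, the stromelysin and both gelatinases were higher with IL-1β in each of the 5 first-batch lines, and the 10 MMPs together took 2.30% to 3.73% of a library's normalised counts with IL-1β against 0.476% to 1.13% in control. A gene was called differentially expressed (DE) when its adjusted p in limma was under 0.05 and its log2-fold change was 1 or more in either direction. By this rule 5 of the 10 genes were DE, namely MMP2, MMP3, MMP8, MMP9 and MMP13, all upregulated, where 12.8% of the 14719 genes tested were DE in either direction and 4.91% were DE and upregulated. With the tenocyte line as a block, which compares the libraries of each line with one another, 8 of the 10 were DE, since MMP1 rose and MMP15 and MMP16 fell, against 16.2% of all genes tested. Control and IL-1β values did not overlap for the same 5 genes that were DE without the block, and for 19.5% of all genes tested. The median log2-fold change was 1.37 over the 10 genes and −0.00341 over all genes tested. All 10 passed the filter on low values, MMP8 only through its IL-1β libraries, so its place in these counts is a description.

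**Figure D1:**
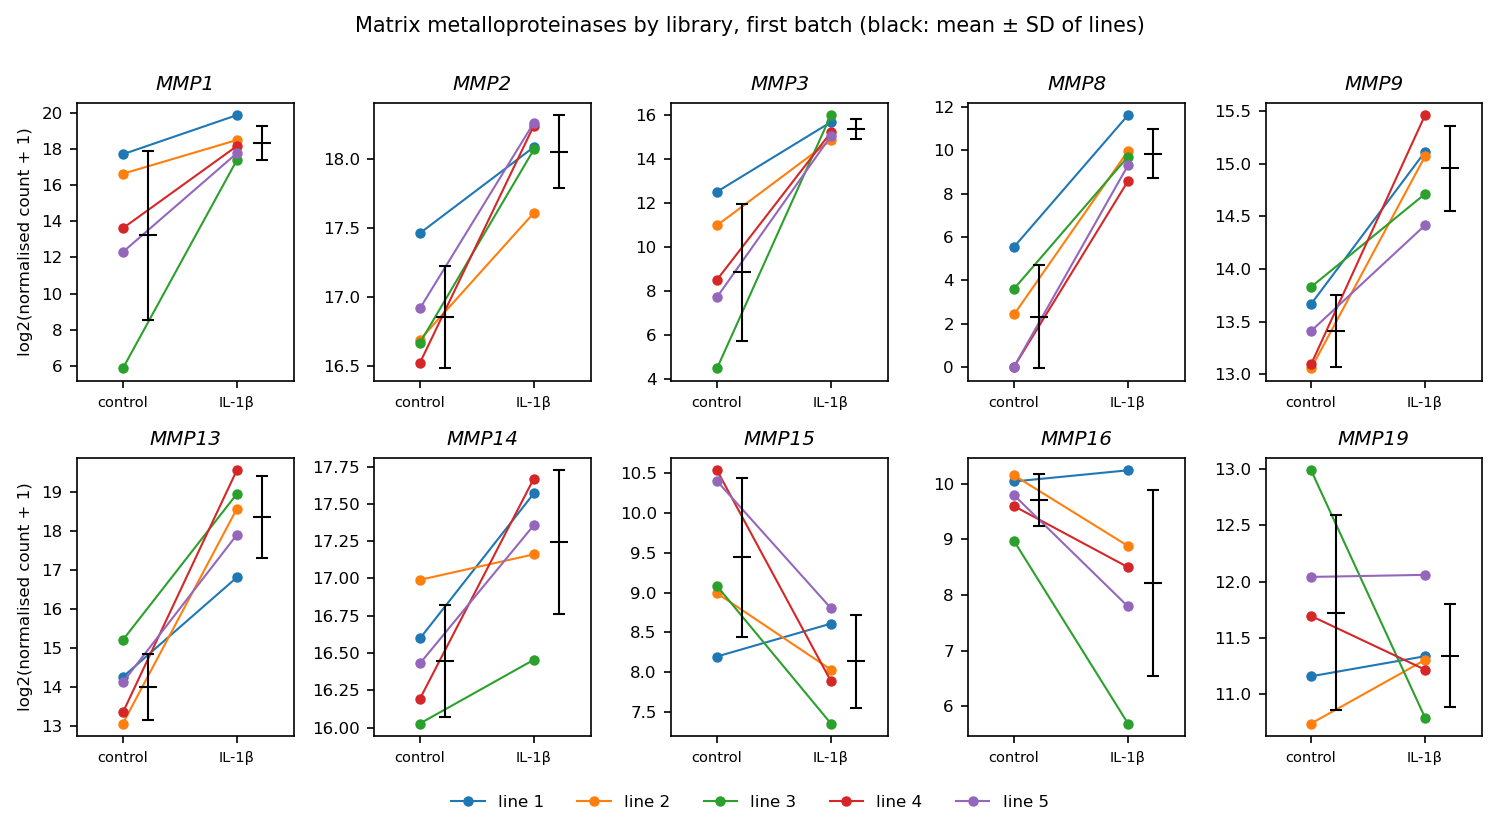
Level of each MMP in the 10 first-batch libraries, as log2(normalised count + 1) on a separate scale for each gene, with the control and IL-1β libraries of a line joined and the mean ± SD of 5 lines in black. MMP1, MMP3 and MMP8 spread widely between control libraries and lie closer together with IL-1β, and MMP15, MMP16 and MMP19 each move in both directions among the lines.

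MMP1, the interstitial collagenase, differed more between control lines than any other of the 10 genes. Its normalised count was 212877, 100940, 57.7, 12549 and 5045 in the controls of lines 1 to 5, a 3690-fold range. With IL-1β the values were 950633, 366534, 169635, 290802 and 220993, a 5.60-fold range, so the lines converged on a high level. The IL-1β value of every line was above its own control, although line 1 in control exceeded line 3 with IL-1β and the groups overlapped. The log2-fold change was 5.10 ± 1.85 (SE, n = 5), with an adjusted p of 0.0630 in limma without the block and 0.0225 with it. Within single lines the rise ran from 1.86 in line 2 to 11.5 in line 3 on the log2 scale, the smallest where control was already high and the largest where it was lowest.

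MMP13, collagenase 3, started from more even levels and rose without overlap. Control cultures of lines 1 to 5 held 19482, 8506, 37599, 10350 and 17722 normalised counts, against 114282, 386425, 504333, 768255 and 243577 with IL-1β. Line 1, the highest of the lines for MMP1 in both conditions, was the lowest for MMP13 with IL-1β. The log2-fold change was 4.36 ± 0.54 (SE, n = 5; adjusted p = 3.53e-04 in limma), a 20.5-fold higher level.

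MMP8, the collagenase best known from neutrophils, was nearly absent from control cultures. Its normalised count was 45.6, 4.34, 11.2, 0 and 0 in the controls of lines 1 to 5 and 3174, 1004, 840, 383 and 635 with IL-1β. Line 1 was the highest in both conditions, and the groups did not overlap. The log2-fold change of 7.53 ± 1.04 (SE, n = 5; adjusted p = 6.85e-04 in limma) was the largest among the 10 genes, and with controls this low it depends on the pseudocount of 1. MMP8 passed the filter on low values only through its IL-1β libraries, so this adjusted p is a description. The neutrophil genes MPO and ELANE were at most 1.93 and 0 in these controls and at most 0 and 3.03 with IL-1β.

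The division of counts among the collagenases varied from line to line in both conditions. MMP1 made up 91.6%, 92.2%, 0.153%, 54.8% and 22.2% of the summed counts of the 3 collagenases in the controls of lines 1 to 5. With IL-1β its share was 89.0%, 48.6%, 25.1%, 27.4% and 47.5%, and MMP13 took nearly all of the rest. The change in the share therefore differed in sign, with a higher share of MMP1 after IL-1β in lines 3 and 5 and a lower share in lines 1, 2 and 4. These shares are of counts that are not scaled for transcript length.

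MMP3, stromelysin 1, varied between control lines in the order of MMP1 and rose to a common level. Controls of lines 1 to 5 held 5841, 2023, 21.4, 364 and 210, the same order of lines as for MMP1, and the IL-1β libraries held 52397, 29576, 65141, 37925 and 33818. Line 3 was the lowest of the lines in control and the highest with IL-1β. The groups did not overlap, and the log2-fold change was 6.51 ± 1.22 (SE, n = 5; adjusted p = 0.00333 in limma). In the horse RefSeq annotation of the assembly TB-T2T, a newer one than the EquCab3.0 used by the authors, MMP8, MMP1, MMP3, MMP12 and MMP13 are neighbouring protein-coding genes in that order, next to MMP7, MMP20 and MMP27.

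The gelatinases moved less in fold but from levels that varied little. MMP2, gelatinase A, had 180801, 105742, 104066, 94103 and 123790 normalised counts in the controls of lines 1 to 5 and 278866, 200215, 275504, 310769 and 315189 with IL-1β. Every IL-1β library was above every control, and the log2-fold change was 1.20 ± 0.24 (SE, n = 5; adjusted p = 0.00508 in limma), a 2.30-fold higher level. MMP9, gelatinase B, had 13012, 8516, 14564, 8748 and 10897 in control and 35476, 34436, 26878, 45153 and 21864 with IL-1β. These groups too were separate, with a log2-fold change of 1.54 ± 0.22 (SE, n = 5; adjusted p = 7.14e-04 in limma).

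Among the membrane types, MMP14 was higher with IL-1β while MMP15 and MMP16 were lower in 4 of 5 lines. MMP14 had 99177, 130219, 66817, 74936 and 88304 normalised counts in the controls of lines 1 to 5 and 194580, 146592, 89838, 208490 and 167907 with IL-1β. It was higher in 5 of 5 lines, but the groups overlapped and the log2-fold change of 0.79 ± 0.27 (SE, n = 5) was under the fold threshold, with an adjusted p of 0.0526 in limma and 0.0280 with the block. For MMP15, a membrane type like MMP14, the controls held 293, 508, 541, 1480 and 1348 and the IL-1β libraries 390, 261, 163, 236 and 446. Only line 1 was higher with IL-1β, and the log2-fold change was −1.30 ± 0.46 (SE, n = 5), with an adjusted p of 0.0571 in limma and 0.0379 with the block. MMP16, another membrane type, had 1052, 1136, 500, 774 and 887 in control and 1210, 471, 50.6, 361 and 221 with IL-1β. Again line 1 was the exception, and line 3 had the lowest value relative to its control. The log2-fold change of −1.49 ± 0.68 (SE, n = 5) had an adjusted p of 0.130 in limma and 0.0355 with the block.

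MMP19 showed no common direction. Its normalised count was 2289, 1712, 8128, 3317 and 4218 in the controls of lines 1 to 5 and 2590, 2532, 1775, 2384 and 4272 with IL-1β. It was higher in 3 lines and lower in 2, with a log2-fold change of −0.38 ± 0.38 (SE, n = 5; adjusted p = 0.498 in limma) that rests on line 3 and is 0.07 without that line.

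Whether members of one subgroup responded by different amounts was asked with the log2 ratio of 2 genes within each library, for 7 pairs in the first batch. The ratio of MMP14 to MMP15 was 8.40, 8.0, 6.95, 5.66 and 6.03 in the controls of lines 1 to 5 and 8.96, 9.13, 9.10, 9.78 and 8.55 with IL-1β. The ratio of MMP14 to MMP16 was 6.56, 6.84, 7.06, 6.60 and 6.64 in control and 7.33, 8.28, 10.8, 9.17 and 9.56 with IL-1β. Neither ratio overlapped between the groups, and the mean differences were 2.10 and 2.28, with p = 0.00794 in a two-sided exact permutation test and an adjusted p of 0.0278 over the 7 pairs for both. No smaller p can be had from 5 libraries against 5, and a sign-flip test that keeps the 5 lines paired cannot reach the threshold. In lines 6 to 8, MMP14 to MMP15 was 7.35, 9.34 and 9.28 in control and 10.2, 8.82 and 9.43 with IL-1β. These values overlapped, and line 7 was lower with IL-1β. MMP14 to MMP16 was 5.52, 6.16 and 5.48 in control and 9.49, 8.43 and 7.76 with IL-1β, without overlap. Ratios of the second batch were not tested.

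The other 5 pairs did not pass. The ratio of MMP8 to MMP13 was higher with IL-1β in 5 of 5 lines, by 3.17 on the log2 scale (exact permutation p = 0.0556, adjusted p = 0.130). MMP9 against MMP2 differed by 0.34 (exact permutation p = 0.262, adjusted p = 0.458), MMP1 against MMP13 by 0.74 (exact permutation p = 0.873), MMP1 against MMP8 by −2.43 (exact permutation p = 0.333) and MMP15 against MMP16 by 0.19 (exact permutation p = 0.833). The ratio of MMP1 to MMP8 had an SD of 4.91 between control lines and of 0.69 between the IL-1β libraries. Lines 6 to 8 gave an SD of 6.82 in control and 0.39 with IL-1β, a contrast that was not tested. In each batch the control SD rests largely on 1 line. The control ratio was 2.27 in line 3 against 12.2 to 14.2 in lines 1, 2, 4 and 5. It was 1.41 in line 6 against 12.3 and 13.9 in lines 7 and 8. Control MMP8 was at 0 in lines 4 and 5, so their ratios depend on the pseudocount of 1.

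**Figure D2:**
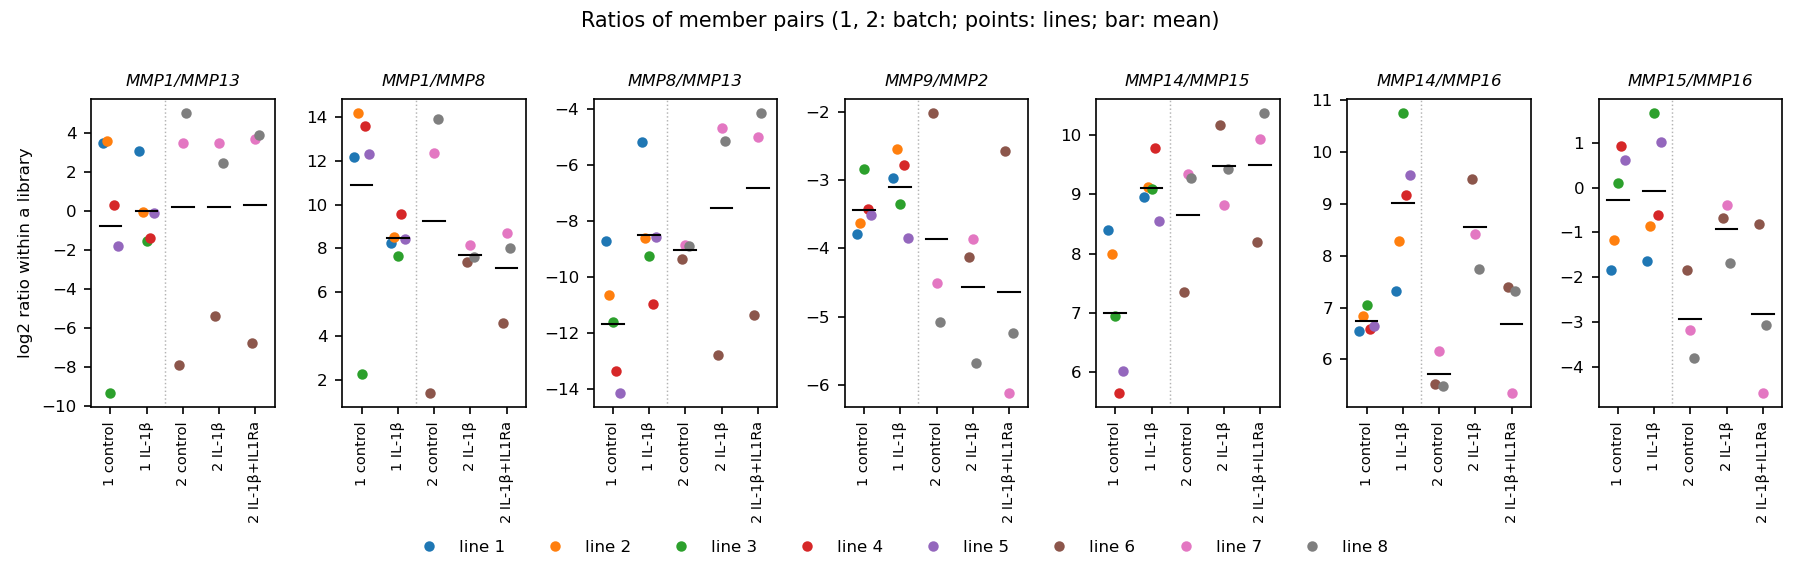
Log2 ratio of 2 MMPs within each library for the 7 pairs, by batch and condition, with 1 point per line and a bar at the mean, each panel on its own scale. First-batch control and IL-1β points are separate for MMP14/MMP15 and MMP14/MMP16, and the IL-1β points of MMP1/MMP8 lie close together in both batches.

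In lines 6 to 8, IL-1β again raised MMP3, MMP8 and MMP13 and lowered MMP16 when each line was compared with itself, and 9 of the 10 mean log2-fold changes were positive. Without the block, 0 of the 10 genes were DE in limma, against 0.341% of the 16705 genes tested. An unadjusted p under 0.05 was found for 5 of the 10 and for 1907 of the 16705. With the block, 4 were DE, namely MMP3, MMP8, MMP13 and MMP16, against 5.18% of all genes tested. In that fit 7 of the 10 and 3708 of the 16705 had an unadjusted p under 0.05. Control and IL-1β values did not overlap for 6 genes, MMP2, MMP3, MMP8, MMP13, MMP14 and MMP16, and for 16.4% of all genes tested. The median log2-fold change was 1.19 over the 10 genes and −0.00840 over all genes tested. Here too MMP8 passed the filter only through its treated libraries, so its place in the counts of this batch is a description.

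The addition of IL1Ra placed MMP3, MMP13, MMP1, MMP8 and MMP14 below their IL-1β level in 3 of 3 lines and MMP16 above it in 3 of 3, while MMP2, MMP9, MMP15 and MMP19 went both ways. Between IL-1β + IL1Ra and IL-1β, 0 of the 10 genes were DE in limma, 0 had an unadjusted p under 0.05, and 0% of all genes tested were DE, with 464 of them at an unadjusted p under 0.05. With the block 0 members were DE as well, against 0.00599% of all genes tested. In that fit 2 members (MMP3 and MMP16) and 1400 of the 16705 genes tested had an unadjusted p under 0.05. Values of these conditions did not overlap for 1 member, MMP3, and for 6.47% of all genes tested. The median log2-fold change was −0.98 over the 10 genes and 0.00884 over all genes tested. This comparison shares its IL-1β libraries with the comparison of IL-1β with control.

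Against control, IL-1β + IL1Ra left 0 of the 10 genes DE in limma, where 0.012% of all genes tested were DE. An unadjusted p under 0.05 was found for 1 of the 10 and for 948 of the 16705 genes tested. With the block 1 member was DE, MMP8, which entered the fit only through its treated libraries, where 0.251% of all genes tested were DE. In that fit 4 of the 10 and 2233 of the 16705 had an unadjusted p under 0.05. Control and IL-1β + IL1Ra values did not overlap for MMP8 and MMP13, and for 11.8% of all genes tested. The median log2-fold change was 0.80 over the 10 genes and 0.00951 over all genes tested, and the control libraries are those also compared with IL-1β.

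**Figure D3:**
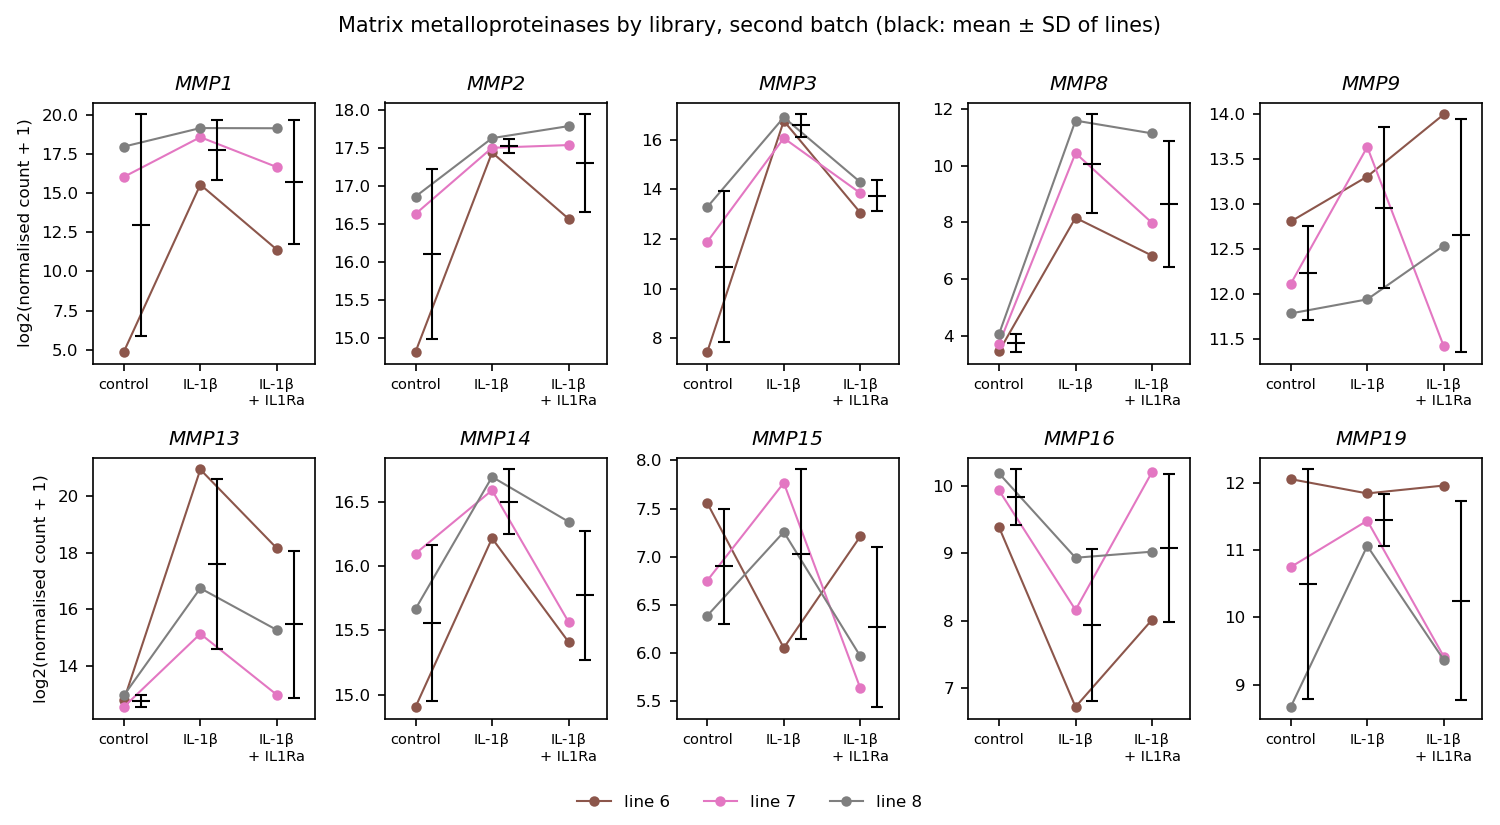
Level of each MMP in the 9 second-batch libraries, as log2(normalised count + 1) on a separate scale for each gene, with the control, IL-1β and IL-1β + IL1Ra libraries of a line joined and the mean ± SD of 3 lines in black. MMP3 peaks with IL-1β in all 3 lines, MMP13 in line 6 lies far above the other lines, and MMP16 is lowest with IL-1β in all 3 lines.

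MMP3 had the largest mean shift by IL1Ra among the 10 genes. Lines 6, 7 and 8 had 174, 3785 and 9976 normalised counts in control, 110611, 68399 and 122147 with IL-1β, and 8532, 14736 and 20010 with IL-1β + IL1Ra. In each line the IL1Ra library lay between the control and the IL-1β library, at 7.71%, 21.5% and 16.4% of IL-1β alone. The log2-fold change was 5.70 for IL-1β against control (adjusted p = 0.125 in limma, 0.0239 with the block) and −2.84 for IL-1β + IL1Ra against IL-1β (unadjusted p = 0.0244 and adjusted p = 0.489 with the block in limma). Against control, IL-1β + IL1Ra was higher by 2.86 (adjusted p = 0.287 with the block), with overlapping values.

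MMP13 was also lower with IL1Ra in every line, from IL-1β levels that differed 55.7-fold between lines. Controls of lines 6 to 8 had 7104, 6038 and 7991 normalised counts, followed by 2009891, 36092 and 110085 with IL-1β, and 292668, 8117 and 39639 with IL-1β + IL1Ra. The IL-1β library of line 6 alone gave 7.25% of its counts to MMP13. IL1Ra libraries stood at 14.6%, 22.5% and 36.0% of IL-1β, and all remained above every control. The log2-fold change was 4.84 for IL-1β against control (adjusted p = 0.285 in limma, 0.0361 with the block) and −2.14 for IL-1β + IL1Ra against IL-1β (adjusted p = 0.624 with the block).

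MMP1 was again the member with the widest range between control lines. Its normalised count in lines 6, 7 and 8 was 28.0, 67946 and 260673 in control, 48288, 396819 and 593974 with IL-1β, and 2700, 105285 and 588952 with IL-1β + IL1Ra. The IL1Ra library of line 6 held 5.59% of the IL-1β level and that of line 7 held 26.5%, whereas line 8 held 99.2% and so showed next to no shift. The order of the control lines was the same as for MMP3, as it was in the first batch. The log2-fold change for IL-1β against control was 4.81 (adjusted p = 0.688 in limma, 0.131 with the block), and −2.03 for IL-1β + IL1Ra against IL-1β (adjusted p = 0.766 with the block).

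MMP8 kept part of its rise in the presence of IL1Ra. Controls of lines 6 to 8 held 9.92, 12.1 and 15.7 normalised counts, the IL-1β libraries 286, 1395 and 3096, and the IL1Ra libraries 113, 252.2 and 2264. These last were 39.4%, 18.1% and 73.1% of IL-1β and all above the controls. The log2-fold change was 6.33 for IL-1β against control (adjusted p = 0.0717 in limma, 0.00613 with the block) and 4.91 for IL-1β + IL1Ra against control (adjusted p = 0.545 in limma, 0.0498 with the block). Between the treatments it was −1.42, with an adjusted p of 0.637 with the block in limma. MMP8 passed the filter of this batch only through its treated libraries, so its adjusted p-values here are a description.

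In lines 6 to 8 the collagenase make-up of each line stayed with the line, unlike in lines 2 to 5 of the first batch. In lines 2, 3, 4 and 5 the MMP1 share went from 92.2%, 0.153%, 54.8% and 22.2% in control to 48.6%, 25.1%, 27.4% and 47.5% with IL-1β. MMP13 took 99.5%, 97.6% and 99.0% of collagenase counts in control, IL-1β and IL-1β + IL1Ra of line 6, and MMP1 took 91.8%, 91.4% and 92.6% in line 7 and 97%, 84.0% and 93.4% in line 8. Together the 10 MMPs took 0.276% to 1.82% of counts in control, 2.32% to 8.79% with IL-1β and 1.24% to 3.26% with IL-1β + IL1Ra.

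Neither gelatinase shifted in a shared direction with IL1Ra. MMP2 had 28918, 101448 and 118855 normalised counts in control, 177437, 185237 and 202188 with IL-1β, and 97071, 189851 and 225595 with IL-1β + IL1Ra. Only line 6 was lower with IL1Ra, at 54.7% of IL-1β, against 102% in line 7 and 112% in line 8. The log2-fold change was 1.42 for IL-1β against control (adjusted p = 0.432 in limma, 0.157 with the block) and −0.23 for IL-1β + IL1Ra against IL-1β (95% interval −1.63 to 1.18). MMP9 had 7161, 4433 and 3529 in control, 10120, 12700 and 3933 with IL-1β, and 16323, 2742 and 5935 with both agents. For IL-1β against control its values overlapped, with a log2-fold change of 0.72 (adjusted p = 0.800 in limma, 0.489 with the block). With IL1Ra it was 161% of IL-1β in line 6, 21.6% in line 7 and 151% in line 8, and the log2-fold change against IL-1β was −0.31 (95% interval −1.86 to 1.24).

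**Figure D4:**
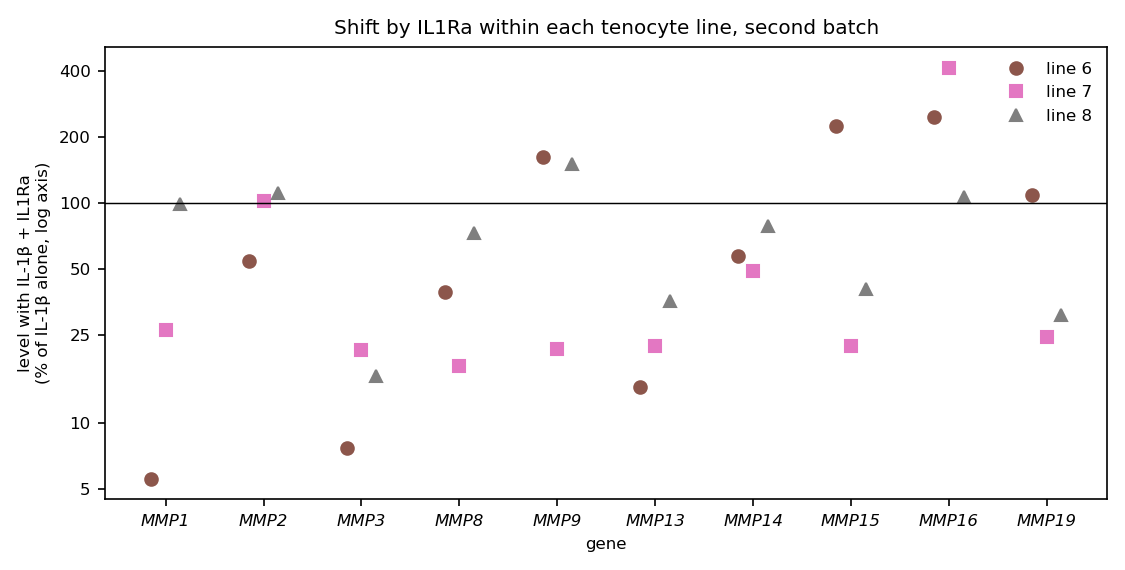
Normalised count with IL-1β + IL1Ra as a percent of IL-1β alone in lines 6, 7 and 8, on a log axis, with the line at 100% marking no shift. All 3 points lie between 7.71% and 21.5% for MMP3 and between 14.6% and 36.0% for MMP13, and all 3 lie above 100% for MMP16.

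Of the membrane types, MMP14 was higher and MMP16 lower with IL-1β in every line, and with IL1Ra added the order was the opposite. MMP14 had 30695, 70069 and 52020 normalised counts in the controls of lines 6 to 8, 76051, 98511 and 105847 with IL-1β, and 43541, 48501 and 83167 with IL-1β + IL1Ra. Every IL-1β library was above every control, with a log2-fold change of 0.94 (adjusted p = 0.440 in limma, 0.185 with the block), and IL1Ra libraries were at 57.3%, 49.2% and 78.6% of IL-1β. MMP16 had 669, 977 and 1163 in control, 105, 286 and 489 with IL-1β, and 258, 1179 and 520 with IL-1β + IL1Ra. Its fall with IL-1β was without overlap, at a log2-fold change of −1.89 (adjusted p = 0.317 in limma, 0.0390 with the block). The IL1Ra libraries stood at 246%, 413% and 106% of IL-1β, a log2-fold change of 1.14 (unadjusted p = 0.0231 and adjusted p = 0.489 with the block in limma), and only line 7 was back above its control.

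MMP15 and MMP19 gave no shared direction in these lines, either for IL-1β against control or for IL-1β + IL1Ra against IL-1β. MMP15 had 187, 107 and 82.8 normalised counts in control, 65.4, 217 and 152 with IL-1β, and 147, 48.7 and 61.6 with IL-1β + IL1Ra. With IL-1β + IL1Ra it was below its own control in 3 of 3 lines, with overlapping values. That log2-fold change was −0.63 (adjusted p = 0.743 with the block in limma). Its log2-fold change for IL-1β against control was 0.13 (adjusted p = 0.972 in limma), which turned to −0.06 when libraries were rescaled to the same total, against −1.30 in the first batch, and the difference between batches was not tested. MMP19 had 4248, 1717 and 406 in control, 3667, 2770 and 2135 with IL-1β, and 3977, 682 and 659 with IL-1β + IL1Ra. Lines 7 and 8 were higher with IL-1β and lower again with IL1Ra, and line 6 was neither. The log2-fold changes were 0.96 (adjusted p = 0.810 in limma) and −1.20 (95% interval −3.32 to 0.92).

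**Figure D5:**
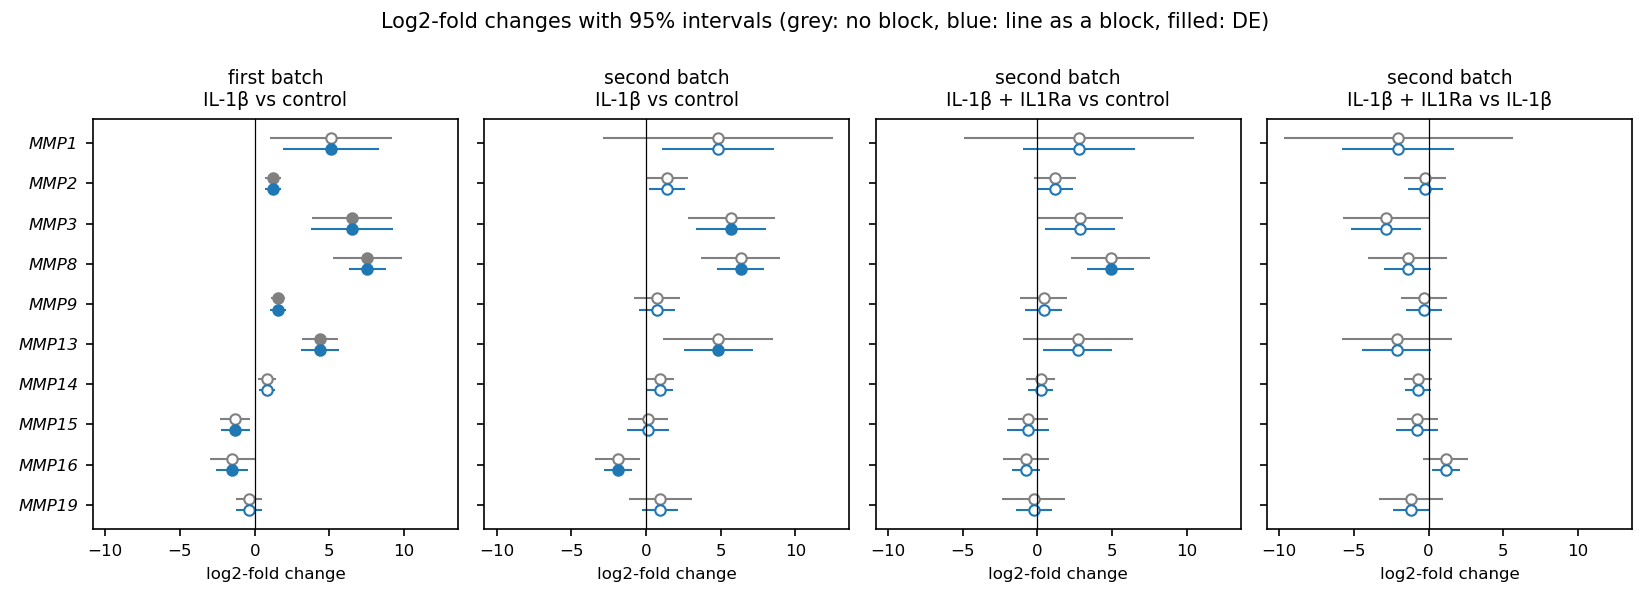
Log2-fold change of each MMP with its 95% interval in the 4 comparisons, from limma without a block (grey) or blocked by tenocyte line (blue), with filled points for DE genes. Without the block 5 genes are DE in the first batch and 0 elsewhere, and with it 8 are DE in the first batch, 4 for IL-1β against control in the second, and 1 for IL-1β + IL1Ra against control.

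Of the other MMPs, 12 were in the tables and 7 passed the filter, and IL-1β moved them both ways. In the first batch 2 rose, 3 fell and 2 did not pass, with a median log2-fold change of −0.75, where 12.8% of all genes tested were DE and 4.91% were DE and upregulated. MMP12, macrophage elastase, rose by 3.54 (adjusted p = 0.0136 in limma) from a mean of 33.4 ± 34.2 to 222 ± 98.8 (SD, n = 5). It passed the filter on low values only with its IL-1β libraries. Its adjusted p and its place in these counts are therefore a description. The membrane-anchored MMP17 rose by 1.42 (adjusted p = 0.0108 in limma). MMP23B fell by 2.26 (adjusted p = 0.0374 in limma), MMP24, another membrane type, fell by 1.83 (adjusted p = 0.0181 in limma) and MMP28 fell by 1.69 (adjusted p = 0.0256 in limma). MMP11, stromelysin 3, was at −0.75 (adjusted p = 0.0307 in limma), under the fold threshold. Of the same 7, 0 were DE in limma in the second batch, with or without the block, and 3 had an unadjusted p under 0.05 for IL-1β against control in both fits. Such a p was found for 1907 of the 16705 genes tested without the block and for 3708 with it. MMP12 had a log2-fold change there of 3.62 for IL-1β against control and −3.02 for IL-1β + IL1Ra against IL-1β (adjusted p = 0.06251 and 0.417 with the block in limma).

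Of 5 inhibitors tested, TIMP1 to TIMP4 and the membrane-anchored RECK, 0 were DE with IL-1β in the first batch by limma without the block, against 12.8% of the 14719 genes tested. An unadjusted p under 0.05 was found for 1 of the 5 (TIMP4) and for 5814 of the 14719. The median log2-fold change of the 5 was −0.08. TIMP1 was at −0.08, TIMP2 at 0.22, TIMP3 at 0.14 and RECK at −0.12, and the scarce TIMP4 was at −2.37 (adjusted p = 0.0584 in limma, and 0.0131 and DE with the block). With the block 1 of the 5 was thus DE, against 16.2% of all genes tested. Lines 6 to 8 gave 0 DE genes of these 5 in each comparison by limma, with or without the block, and for IL-1β against control 0 had an unadjusted p under 0.05 without the block and 1 with it. Such a p was found for 1907 of the 16705 genes tested without the block and for 3708 with it.

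Among 8 tested genes linked to the activation of pro-MMPs, PCSK5, a proprotein convertase, rose by 1.78 in the first batch (adjusted p = 0.00257 in limma). Its relative PCSK6 fell by 3.64 (adjusted p = 1.52e-04 in limma) and PLAT, tissue plasminogen activator, fell by 1.07 (adjusted p = 0.00466 in limma). These 3 of 8 stand beside the 12.8% of all genes tested that were DE, and the median was 0.21. FURIN, which cuts the membrane-type precursors, was at 0.05. Over the comparisons of lines 6 to 8, PCSK6 was the only one of them DE with the block, at −2.88 for IL-1β against control (adjusted p = 0.0349 in limma). For that comparison 5.18% of all genes tested were DE with the block. Without the block 0 of the 8 were DE, against 0.341% of all genes tested for IL-1β against control. In that comparison 1 of the 8 had an unadjusted p under 0.05 without the block and 6 had one with it. Such a p was found for 1907 of the 16705 genes tested without the block and for 3708 with it.

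Of 16 transcription factors known to act on MMP promoters, 3 were DE in the first batch, all upregulated, with a median of 0.38, where 12.8% of all genes tested were DE and 4.91% were DE and upregulated. NFKB1, a subunit of NF-κB, rose by 1.59 (adjusted p = 1.87e-04 in limma), CEBPB, which responds to inflammatory cytokines, rose by 1.54 (adjusted p = 3.01e-04 in limma) and the ETS factor ETV4 rose by 1.07 (adjusted p = 0.00987 in limma). Of the AP-1 genes, FOS, JUN, JUNB and JUND were at 0.32, −0.32, −0.10 and −0.03 and did not pass. FOSB was DE only with the block, at 1.14 (adjusted p = 0.0463 in limma). With the block 4 of the 16 were DE, against 16.2% of all genes tested. FOSL1 was at 0.80 and higher in 5 of 5 lines (adjusted p = 0.0984 in limma, 0.00938 with the block), and FOSL2 was at −0.38 and lower in 5 of 5 lines (adjusted p = 0.154 in limma, 0.0303 with the block), both under the fold threshold. For lines 6 to 8, CEBPB and NFKB1 were DE with the block for IL-1β against control, at 1.48 and 1.49 (adjusted p = 0.0213 and 0.00652 in limma). These 2 of 16 stand beside 5.18% of all genes tested. Without the block 0 of the 16 were DE in that comparison, against 0.341% of all genes tested.

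Fibrillar collagens are the substrates of the collagenases, and of 5 such genes tested in the first batch 4 fell and 0 rose with IL-1β, with a median of −1.82, where 12.8% of all genes tested were DE in either direction. COL1A1 and COL1A2, the chains of collagen I, fell by 1.83 and 1.33 (adjusted p = 0.00588 and 0.0136 in limma), COL5A1 fell by 1.82 (adjusted p = 0.00592 in limma) and COL11A1 fell by 3.71 (adjusted p = 8.69e-04 in limma). Of these, 0 were DE by limma in the second batch, with or without the block, 1 had an unadjusted p under 0.05 for IL-1β against control in both fits, and with IL-1β + IL1Ra against IL-1β their median was 0.11. For IL-1β against control such a p was found for 1907 of the 16705 genes tested without the block and for 3708 with it.

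Of 10 collagen-binding receptors and surface partners of MMPs, 1 was DE in the first batch, a fall, against 12.8% of all genes tested, with a median of −0.35. ITGA11, the alpha chain of a collagen-binding integrin, fell by 7.59 (adjusted p = 0.00190 in limma), from a mean of 17152 to 127 normalised counts. DDR1, a receptor tyrosine kinase for collagen, was higher in 5 of 5 lines of the first batch at 0.93 (adjusted p = 0.00100 in limma), under the fold threshold. It was DE in the second batch with the block, at 1.22 for IL-1β against control (adjusted p = 0.00912 in limma). ITGA11 was DE in that fit as well, at −5.64 (adjusted p = 0.0214 in limma), and was at 2.63 for IL-1β + IL1Ra against IL-1β. For IL-1β against control 5.18% of all genes tested were DE with the block. Without the block 0 of the 10 were DE in that comparison, against 0.341% of all genes tested.

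For each MMP the 2 genes with the most similar pattern were taken by Pearson's r of log2 values over the 10 first-batch libraries, which share the IL-1β treatment and the lines. These 20 values ran from 0.896 to 0.987, and the same genes gave −0.368 to 0.924 over the 9 second-batch libraries. EDNRB, an endothelin receptor, was the closest to MMP1 (0.987 in the first and 0.924 in the second batch), and HEXIM1 was the closest to MMP2 (0.972 and 0.894). MOV10 was the closest to MMP3 (0.987 and 0.526), MKLN1 to MMP8 (0.978 and 0.885) and ARSJ to MMP13 (0.966 and 0.736). PLA2G2A, a secreted phospholipase, came next for MMP13 (0.966 and 0.798). DHH was the closest to MMP9 in the first batch at 0.962 but stood at −0.318 in the second.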

How the data were processed

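RNA of 19 cultures was sequenced as poly(A)-selected, stranded libraries. The authors quantified EquCab3.0 transcripts with Salmon, used tximport to obtain gene counts, and deposited the signal values, which are those counts divided by DESeq2 1.36 size factors (R 4.2.1), with a table for each batch. Whole reads could not be recovered from these values, so no count model was fitted. All columns mapped to a sample, and 0 pairs of libraries were identical.

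A gene entered the fit when 5 or more libraries of the first batch, or 3 or more of the second, had 10 or more normalised counts. Values were fitted as log2(normalised count + 1) with limma 3.58.1 in R 4.3.3 (trended eBayes), and p-values were adjusted by Benjamini-Hochberg over all genes of a comparison. Fold changes are on this scale, which understates changes of low genes. The 3 conditions of the second batch shared a fit. Ratios were tested with an exact permutation test computed in Python 3.11.15 with numpy 2.4.6. The fits were tested on simulated data. Reads shared by similar MMPs were divided by Salmon, and that division cannot be checked here.

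Libraries of a line come from the same donor, so line numbers pair them. Deviations from condition means correlated at 0.35 to 0.58 within a line (5 pairs) and −0.36 to 0.29 between lines (20 pairs) in the first batch, and at 0.54 to 0.79 (9 pairs) and −0.62 to 0.25 (18 pairs) in the second. The main fit has no line term, and the blocked fit is an alternative. Other alternatives changed the pseudocount, filter or scaling, dropped the trend, fitted 2 conditions alone, or left out each line.

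The 10 genes are named in full, list members where DE in a comparison or among the 3 largest changes of their list, besides some further list members chosen after their values were seen. The members and lists were chosen with earlier results of these data known. Names were matched to a RefSeq table of the assembly TB-T2T, which differs from the authors' build, so no coordinates are given. The summed level of the leukocyte marker list is not reported here.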

Additional observations from a re-analysis of the deposited data

How the results depend on the processing

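The number of the 10 MMPs that were DE in the first batch was 5, was 5 to 6 when each line was left out, and was 8 with the line as a block. With the block it was 5 to 8 over the left-out lines (chosen after seeing the data), 5 without line 4 or line 5. In the second batch IL-1β against control gave 0, 0 to 2 over the left-out lines (2 without line 6, MMP3 and MMP8) and 4 with the block. With the block and each line left out it was 0 to 3, with 3 without line 6, 0 without line 7 and 1 without line 8. IL-1β + IL1Ra against control gave 1 with the block and 0 to 1 over the left-out lines, 0 without line 7 or line 8. IL-1β + IL1Ra against IL-1β gave 0 with the block and 0 to 1 over the left-out lines, 1 being MMP3 without line 6. The other alternatives left these counts as they were. Of the 7 ratios, 2 passed, 0 passed with the line as a block in a sign-flip test, and 0 passed without any line, where 4 against 4 libraries allow no p below 0.0286 before adjustment.

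Directions that turned were those of small changes. Over the left-out lines the log2-fold change ran from −0.62 to 0.0711 for MMP19 in the first batch and from −0.32 to 0.94 for MMP15 with IL-1β against control in the second. For IL-1β + IL1Ra against control it ran from −0.0132 to 0.59 for MMP14 and from −0.71 to 0.30 for MMP19. For IL-1β + IL1Ra against IL-1β it ran from −0.42 to 0.10 for MMP2 and from −0.81 to 0.64 for MMP9. The ratio MMP1/MMP13 ran from −1.01 to 1.84 and MMP15/MMP16 from −0.15 to 0.62. Rescaling the second batch to equal totals moved the median of all genes by −0.19 for IL-1β against control and by 0.11 for IL-1β + IL1Ra against IL-1β, and turned MMP15 in the former to −0.0552. The causes were not tested. Over all genes, IL-1β against control in the second batch gave 57 DE genes, 34 without trend or with 2 conditions, 92 with the stricter filter and 865 with the block. With 3 lines and the lower counts of the second batch, intervals there are wide.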
